A study of Mus musculus with 7 samples.

Results

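The clustered protocadherins were taken as all genes on mouse chromosome 18 in the mm9 annotation (GENCODE) whose symbol begins with Pcdha, Pcdhb or Pcdhg. This gave 25 members, all on the plus strand, beside 22350 protein-coding genes in the whole annotation. The members are Pcdha11 and Pcdha3, Pcdhb1 to Pcdhb22 (of which Pcdhb20 is annotated as a pseudogene) and Pcdhgc5. The annotation folds most Pcdha variants into 10 transcripts of Pcdha11 and the Pcdhg variants into 10 transcripts of Pcdhgc5, while a later RefSeq table lists 58 symbols (14 Pcdha, 22 Pcdhb and 22 Pcdhg). The symbol Pcdhgc5 therefore stands here for the merged Pcdhg gene, whose annotated start is that of its leftmost transcript, and no C-type variant is a gene of its own. Peaks were collected from the first to the last member and 100 kb to each side, a window of 1112 kb that held 40 of 68667 CTCF peaks and 28 of 68656 Rad21 peaks.

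The lists come from ChIP-seq of liver from 8-week-old female Crl:CD1(ICR) mice, an outbred stock, with no treatment. Chromatin was precipitated with an antibody to the DNA-binding protein CTCF (4 libraries) or to Rad21, a subunit of the cohesin ring (3 libraries), and the authors called peaks on the pooled reads of each antibody. Each list therefore stands for 1 pool, no SD can be given, and no difference below has a replicate check. The lists hold no read totals and no expression values, so the depth behind a peak is unknown from them and the liver label could not be checked against marker genes. Whole liver holds several cell types, and a weak peak in every cell cannot be told apart from a strong peak in few cells.

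Clustered protocadherins are cell-surface adhesion proteins best known from neurons, where each cell expresses its own small set of variants and uses them to tell itself from its neighbours. Each variable exon of the Pcdha and Pcdhg clusters has its own promoter and is spliced to constant exons shared by the cluster, whereas Pcdhb genes are single exons. In neurons CTCF and cohesin bind at variant promoters and at distant enhancers, and promoter choice is linked to DNA loops between CTCF sites that face each other, which is why the strand of each CTCF motif is given below.

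The CTCF motif was learned from the 1000 CTCF peaks of highest fold enrichment on odd-numbered autosomes, and its consensus is shown because all motif scores below refer to it. Capitals mark the 7 positions that carry at least 1 bit of information.
CTCF consensus, 5′ to 3′: tggCCaccAGggGGCgccag
A motif was called at 14.2 bits or more, a score that 1% of 51825 flanking windows reached. A looser threshold of 9.84 bits was reached by 5% of them, and the best possible score is 27.8 bits. Of 28378 CTCF peaks on the even-numbered autosomes that were scored, 44.7% had a called motif within 100 bp of the summit.

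In liver the 3 clusters differed in how densely and how strongly they were bound. The Pcdha cluster held 4 CTCF peaks (1.55 per 100 kb), the Pcdhb cluster 11 (4.27 per 100 kb) and the Pcdhg cluster 14 (8.31 per 100 kb), against 2.33 per 100 kb over the whole chromosome. Fold enrichment is the ratio of pooled reads at the summit to the local background, as given for each peak. Its median was 4.05 in Pcdha, 4.40 in Pcdhb and 12 in Pcdhg, compared with 6.05 in the whole CTCF list. Rad21 followed the same order, with 2, 8 and 9 peaks and medians of 4.40, 5.06 and 8.41 (whole Rad21 list 4.93). Over the window, the median was 7.33 for CTCF (95% order-statistic interval 5.09 to 10.3) and 7.04 for Rad21 (4.81 to 8.96). The 40 CTCF and 28 Rad21 peaks are not an unusual number for 1112 kb, because 2161 autosomal tiles of that length had medians of 25 CTCF peaks (quartiles 9 and 47) and 26 Rad21 peaks (8 and 49). The map of fold enrichment along the window shows the rise from left to right.

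**Figure D1:**
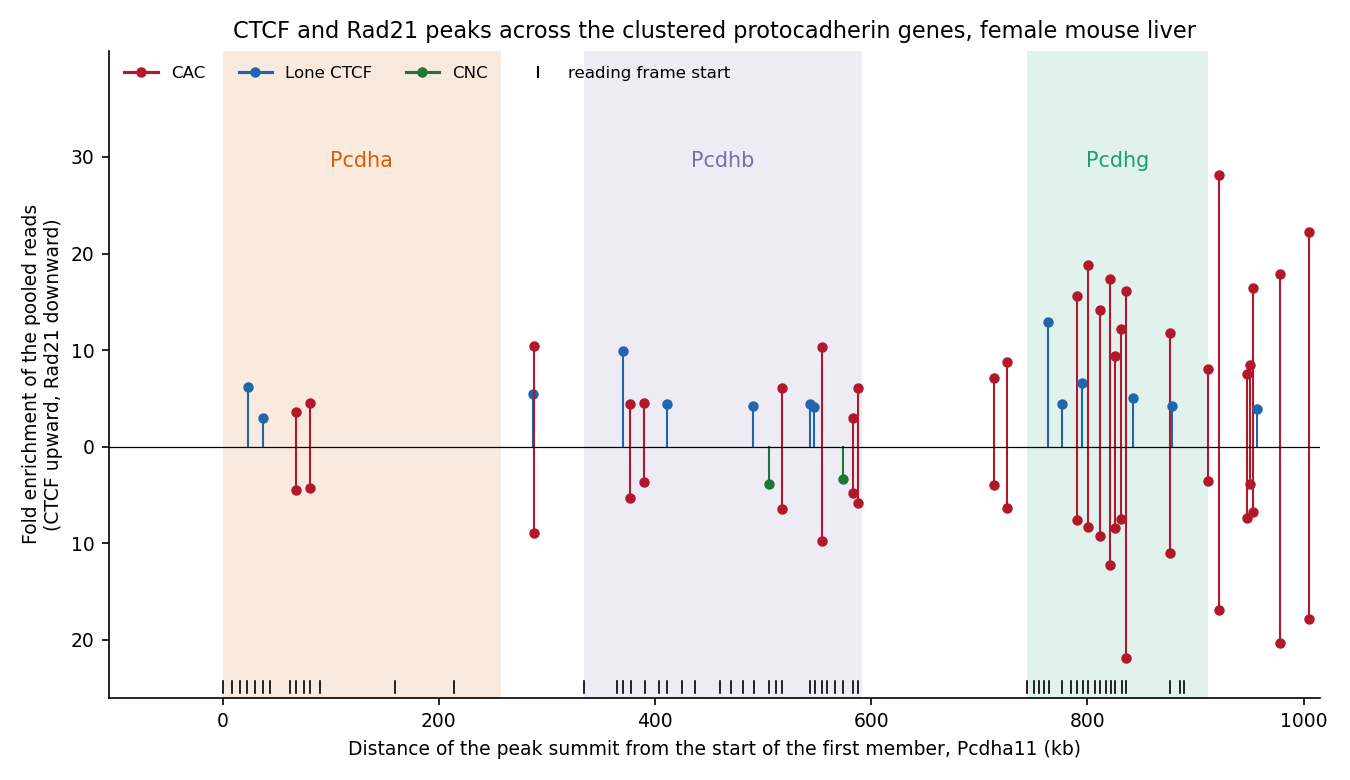
Fold enrichment of every CTCF peak (upward) and Rad21 peak (downward) against the distance of its summit from the start of Pcdha11, in kb. Colours give the class of each peak, shaded bands the 3 clusters, and ticks at the bottom the 58 long reading frames inside them. Peaks are few and low in Pcdha, with a highest CTCF value of 6.18, and reach 18.8 in Pcdhg and 28.1 to its right.

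Most Rad21 peaks of the window coincided with CTCF. Peaks shared by both lists (at least 1 bp of overlap) are called CAC, for cohesin-and-CTCF, CTCF peaks without Rad21 are Lone CTCF, and Rad21 peaks without CTCF are CNC, for cohesin-non-CTCF. Of the 28 Rad21 peaks, 26 were CAC (92.9%, 95% Wilson interval 77.4 to 98%), compared with 73.6% of the whole list. Of the 40 CTCF peaks, 26 were CAC (65%, 49.5 to 77.9%), compared with 73.7%. Wilson intervals cover counting error only, and neighbouring peaks are not independent. In 25 of the 26 shared sites the summits lay within 100 bp of each other, with a median gap of 18 bp. Across these 26 sites the log2 fold enrichments of CTCF and Rad21 correlated (Pearson's r = 0.78, Spearman's rho = 0.80), as they did over the 50613 shared sites of the whole list (0.78 and 0.77). The points share their pools and their local background, and the value is a description only.

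At the gene starts fixed by the rule, 11 of 25 members had a CTCF peak within 1 kb (44%, 26.7 to 62.9%), where 50% of all protein-coding genes had one. Rad21 peaks stood at 8 members (32%, 17.2 to 51.6%, all genes 49.4%) and CAC peaks at 6 (24%, 11.5 to 43.4%, all genes 45.8%). The members therefore had no more peaks at their starts than other genes. All 11 members with a CTCF peak are Pcdhb genes, that is, 11 of 22, and the starts of Pcdha11, Pcdha3 and Pcdhgc5 had neither a CTCF nor a Rad21 peak. Other clustered families were counted in the same way. Of 119 Vmn2r genes, pheromone receptors that also lie in clusters, 0 had a CTCF or Rad21 peak at the start, which allows a share of up to 2.52% by a floor of 3 genes (95% Wilson interval up to 3.13%). Whether reads can be placed uniquely at the Vmn2r starts was not computed, and a start where they cannot would also show no peak. Of 40 Hox genes, the patterning factors of the body axis, 9 had a CTCF peak (22.5%, 12.3 to 37.5%).

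At the Pcdhb starts the CTCF values ran from 3.02 to 10.3, with a median of 4.40, and most were below 5. Pcdhb17 had the highest CTCF value of the cluster, 10.3, and also the highest Rad21 value, 9.79. Pcdhb3 came next with a CTCF fold enrichment of 9.90, but it had no Rad21 peak and was Lone CTCF. Pcdhb14 and Pcdhb22 both had 6.05 for CTCF, with Rad21 at 6.47 and 5.81. These 4 genes were the only Pcdhb members with a CTCF value above 5. The other 7 were weaker.

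Among those 7, Pcdhb5 (CTCF 4.54, Rad21 3.65), Pcdhb4 (4.40, 5.31) and Pcdhb21 (3.02, 4.81) were CAC. Pcdhb7 and Pcdhb15 (4.40 each), Pcdhb11 (4.26) and Pcdhb16 (4.12) were Lone CTCF. Their −log10 q values ran from 4.01 at Pcdhb21 to 11 at Pcdhb5, so 3 of them fall below a −log10 q of 10. At 2 genes, Pcdhb12 (3.82) and the pseudogene Pcdhb20 (3.32), the Rad21 list had a peak and the CTCF list had none, and these are the only CNC peaks of the window.

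**Figure D2:**
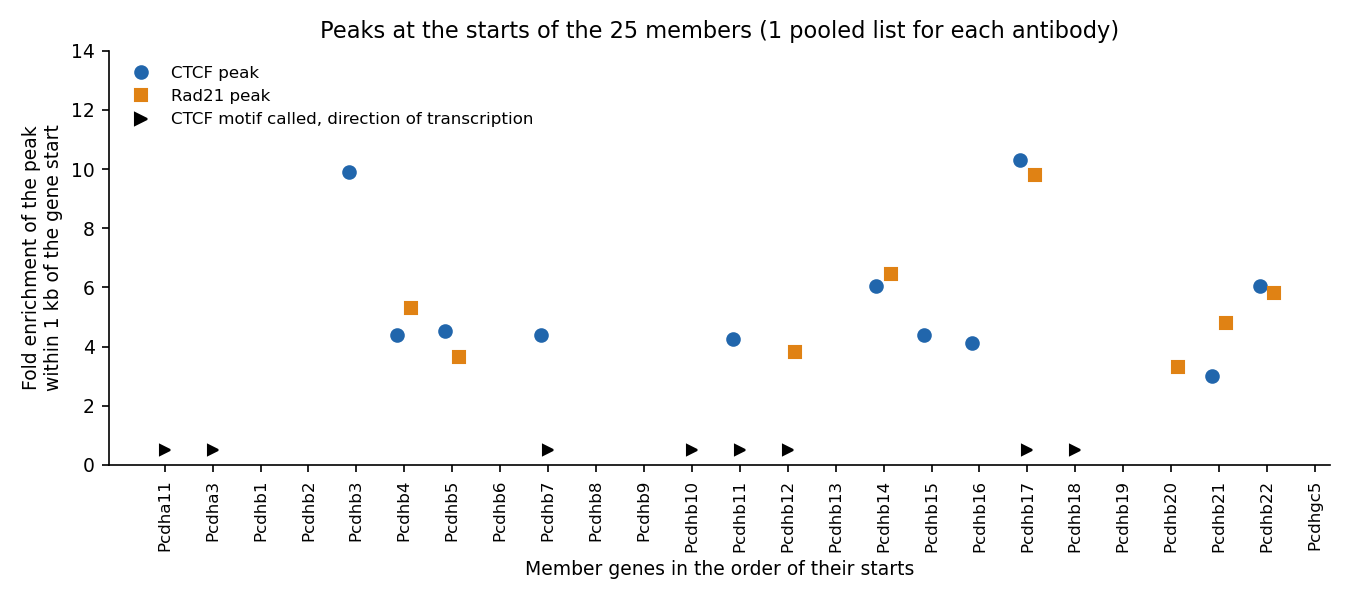
Fold enrichment of the CTCF peak (circles) and the Rad21 peak (squares) within 1 kb of the gene start of each of the 25 members, in the order of their starts; a member without a symbol had no peak. Triangles mark members with a called CTCF motif. Pcdhb3 and Pcdhb17 stand apart with CTCF values near 10, Pcdha11 and Pcdha3 have a motif and no peak, and Pcdhgc5 has neither.

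The Pcdhb peaks sat at a fixed place. All 11 CTCF summits lay between 81 bp before and 19 bp after the annotated start, with a median of 43 bp before it, and the 8 Rad21 summits lay between 91 bp before and 16 bp after. Motif score and base composition overlapped between the starts with a peak and the 11 without one. The best motif score within 1 kb was 10.2 to 14.6 bits (median 13 bits) at starts with a CTCF peak and 9.80 to 15.2 bits (median 11.9) at starts without. Both groups had a median of 15 CpG per kb. The share of unique 50-mers, which decides whether reads can be placed, ran from 88.1 to 100% at starts with a peak and from 87.2 to 100% at starts without. Pcdhb18 (15.2 bits) and Pcdhb10 (14.8 bits) had the highest scores of the cluster and no peak.

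The direction of the motif was the same throughout. A called motif was found within 1 kb of 8 of the 25 member starts (32%, 17.2 to 51.6%), compared with 18.4% of all protein-coding genes, and in 8 of 8 it pointed in the direction of transcription. Over all genes with a called motif, 53.8% pointed that way. At the looser threshold 24 of the 25 members had a match (96.0%, all genes 58.3%), and 24 of 24 pointed in the direction of transcription (all genes 52%). Pcdhb1, the first gene of its cluster, was the member without such a match. The members arose by gene duplication and share sequence, so these 24 are not independent.

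Because the annotation hides most Pcdha and Pcdhg variants, the count was repeated, after the data had been seen, over 47 annotated transcript starts and over all open reading frames of at least 2000 bp on the plus strand. The window held 61 such frames, of which 58 lay inside the clusters (14 in Pcdha, 24 in Pcdhb and 20 in Pcdhg) and 40 of those matched an annotated coding exon. A frame need not be a used exon. CTCF peaks stood within 1 kb of 20 of the 47 transcript starts (42.6%) and of 26 of the 58 frames (44.8%, 32.7 to 57.5%). Thus 26 of the 40 CTCF peaks and 18 of the 28 Rad21 peaks of the window were at a frame. The frames with a CTCF peak numbered 4 of 14 in Pcdha (28.6%, 11.7 to 54.6%), 11 of 24 in Pcdhb (45.8%, 27.9 to 64.9%) and 11 of 20 in Pcdhg (55%, 34.2 to 74.2%). The share of all protein-coding gene starts with a CTCF peak within 1 kb was 50%, so the shares in Pcdhb and Pcdhg were near it, and the interval of each of the 3 shares includes it. A frame begins at a coding sequence and not at a transcript start, so this background is not of the same kind. The difference between the 3 shares was not tested. Of the 24 Pcdhb frames, 2 that lie in no annotated gene had only 2.50 and 4.30% unique 50-mers, so that reads there could hardly be placed. Without them, chosen after the data were seen, CTCF peaks stood at 11 of 22 Pcdhb frames (50%, 30.7 to 69.3%) and at 26 of 56 frames in all (46.4%, 34 to 59.3%). The other 56 frames had 78.6 to 100% unique 50-mers.

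**Figure D3:**
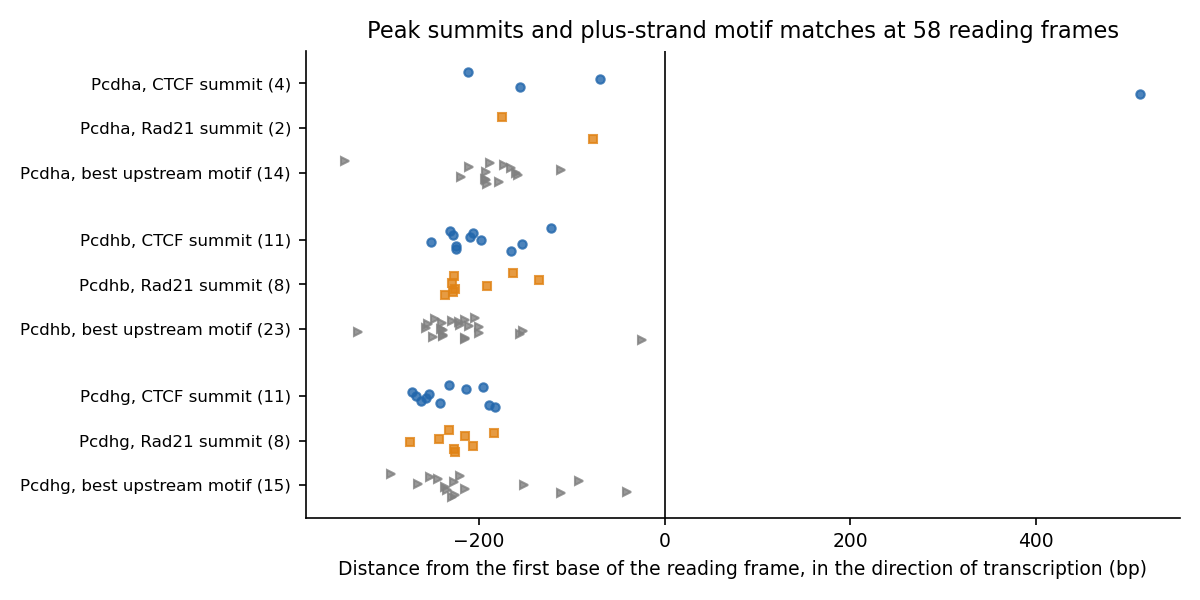
Distance in bp from the first base of each reading frame to the summits of CTCF peaks (circles) and Rad21 peaks (squares), by cluster. Distances run in the direction of transcription. Triangles mark the best motif match in the 400 bp before the frame, at any score, where that match is on the plus strand. In Pcdhg 15 of 20 frames have a triangle, and 2 of these reach the looser threshold. Numbers in brackets are counts. Except for 1 Pcdha peak at 512 bp, the CTCF summits lie from 272 to 70 bp before the frame.

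In the Pcdhg cluster, peaks were strong although the motif was weak. The CTCF fold enrichment at its 11 frames with a peak ran from 4.40 to 18.8 with a median of 12.9, and the Rad21 value at the 8 frames with a CAC peak ran from 7.46 to 21.9 with a median of 8.85. The CTCF summits lay 272 to 183 bp before the frame, and the Rad21 summits 274 to 184 bp before it. None of the 11 CTCF peaks had a called motif within 100 bp of the summit, and 1 reached the looser threshold, with a match 99 bp from the summit. For comparison, of 6412 CAC peaks on even-numbered autosomes with fold enrichments in the range of the 8 CAC sites (9.37 to 18.8), 70% had a called motif (68.9 to 71.1%) and 88.5% reached the looser threshold. The median best score was 16.7 bits in those peaks and 7.89 bits in the 8 CAC sites. Of 15339 CTCF peaks of either class on the same autosomes with fold enrichments in the range of all 11 sites (4.40 to 18.8), 52.7% had a called motif and 73.7% reached the looser threshold, and their median best score was 14.6 bits against 6.04 bits in the 11 sites. Of the 11 Pcdhb peaks at frames, 3 had a called motif (27.3%, 9.75 to 56.6%), 11 reached the looser threshold, and the median was 13 bits. Of 16753 CTCF peaks on the same autosomes with fold enrichments in the range of these 11, 32.6% had a called motif and 53.3% reached the looser threshold, with a median of 10.6 bits, so the share of called motifs in Pcdhb was near that background. The 20 Pcdhg frames had 0 called motifs within 1 kb, with or without a peak (95% Wilson interval up to 16.1%), where 18.4% of all protein-coding gene starts had one. The frames of 1 cluster share sequence, so this contrast may rest on few independent sites, and no test was made.

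**Figure D4:**
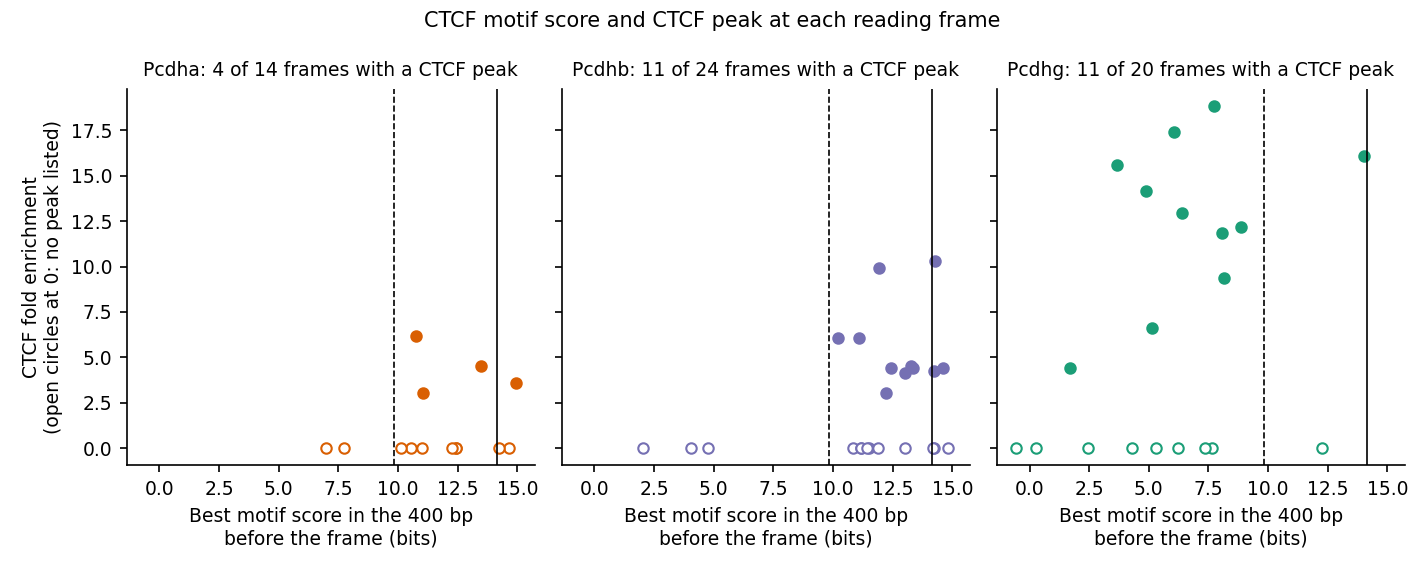
CTCF fold enrichment of the peak at each reading frame against the best motif score in bits in the 400 bp before it, with open circles at 0 for frames without a peak. Solid and dashed lines are the thresholds of 14.2 and 9.84 bits. Pcdhg frames with a peak reach 18.8 with scores mostly under 10 bits, whereas all 11 Pcdhb frames with a peak score above 10 bits and none exceeds 10.3 in fold enrichment.

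The strongest peaks of the Pcdhg cluster were as follows. The highest CTCF value was 18.8, at a CAC site from 37890318 to 37890739 that lies 257 bp before a frame without an annotated transcript start, with Rad21 at 8.29. The highest Rad21 value was 21.9, above 97.4% of that list, at 37925392 to 37925787, where CTCF was 16.1. This site lies 353 bp inside the transcript Pcdhgc5-202, in its untranslated first part, and 184 bp before the frame. Its CTCF peak was the only Pcdhg frame peak whose best motif, at 14 bits, came near the threshold. That match lay 99 bp from the CTCF summit, at the edge of the searched 100 bp. Around the Rad21 summit of the same site the best score was 4.83 bits.

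Further CAC sites in that cluster had CTCF values of 17.4, 15.6, 14.2, 12.2, 11.8 and 9.37. The site of 14.2 stood 121 bp before the transcript Pcdhgc5-201, that of 9.37 stood 104 bp before Pcdhgc5-204, and that of 11.8 stood 94 bp before Pcdhgc5-208 with Rad21 at 11. Pcdhgc5-205, Pcdhgc5-203 and Pcdhgc5-209, which start farther right, had no peak within 1 kb. At 3 frames the peak was Lone CTCF, with values of 12.9, 6.60 and 4.40. The value of 12.9 exceeded those of 3 of the 8 CAC sites at frames, while the other 2 lay below the lowest of them (9.37). The median was 6.60 at the 3 Lone CTCF frames and 14.9 at the 8 CAC frames.

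The first 4 frames of the Pcdhg cluster, including the one of Pcdhgc5-207 that gives the gene its annotated start, had no CTCF or Rad21 peak. Along the cluster the peaks thus began at the fifth frame.

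The Pcdha cluster showed the reverse, called motifs with few and weak peaks. Within 1 kb of the frame, 10 of 14 Pcdha frames had a called motif (71.4%, 45.4 to 88.3%), where 18.4% of all protein-coding gene starts had one. Of these 10, 7 had no CTCF peak within 1 kb (70%, 39.7 to 89.2%), compared with 25.1% of the 4117 gene starts with a called motif. A frame begins at a coding sequence, so gene starts are not a background of the same kind. The difference was not tested, and the frames share sequence. Called motifs without a CTCF peak were also found at 3 of 6 Pcdhb frames with a called motif. Over all member starts they were found at 5 of 8 (62.5%). The motifs lay in 2 places. In the 400 bp before the frame 3 of 14 had a called motif and 12 of 14 a match at the looser threshold, on the plus strand in each. That part was not particular to Pcdha. Of 24 Pcdhb frames, 6 had a called motif there and 21 a looser match, and of 20 Pcdhg frames 0 and 2. In the first 700 bp of the frame itself 8 of 14 had a called motif, all on the plus strand and centred 463 to 553 bp from the first base. No Pcdhb or Pcdhg frame had a called motif in the first 700 bp. For neither of the 2 places was a share over all genes computed. The highest score, 21.7 bits, was 466 bp into the frame of Pcdha11-204, the annotated start of Pcdha11, and the CTCF summit nearest to that annotated start was 22993 bp from it. Pcdha3 had a called motif of 14.2 bits 132 bp before its start and no peak.

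The 4 CTCF peaks of the Pcdha cluster were all at frames. Of these, 2 had a called motif within 100 bp of the summit and 4 reached the looser threshold, compared with 26.8% and 46.3% of 12024 CTCF peaks on even-numbered autosomes in the same range of fold enrichment. At Pcdha11-208 a Lone CTCF peak of 6.18 had its summit 512 bp into the coding exon, 49 bp from a called motif of 18.7 bits. This was the only peak at the inner motif. At Pcdha11-207 (CTCF 3.57, Rad21 4.48) and Pcdha11-205 (4.54, 4.31) CAC peaks stood 70 and 212 bp before the start. The fourth peak was Lone CTCF with 3.02, 156 bp before a frame without an annotated start. Pcdha11-201 and Pcdha11-202, the last starts of the cluster, had no peak within 1 kb, although Pcdha11-202 had the highest GC content of any start (67.3%, with 89 CpG per kb). Unique 50-mers made up 78.6 to 100% of the sequence around the 10 Pcdha frames without a CTCF peak and 82.7 to 96.4% around the 4 with one.

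Away from the frames the called motifs pointed the other way. Of 14 CTCF peaks of the window that were more than 1 kb from a frame, 9 had a called motif, and 9 of 9 were on the minus strand, pointing to the left, against the direction of transcription of the members. Of the 26 peaks at frames, 5 had a called motif and 5 of 5 were on the plus strand. At the looser threshold 16 of 16 matches at frames were on the plus strand, and of 11 matches away from frames 9 were on the minus strand and 2 on the plus strand, at the peak by 3222401L13Rik (10.4 bits) and at a Diap1 intron peak (10.9 bits). In the window as a whole 14 of 40 CTCF peaks (35%) had a called motif, compared with 44.7% of the 28378 scored peaks, and the share away from frames was 64.3%. The 44.7% is not matched for fold enrichment. Among scored peaks the share was 26.8% in the fold range of the Pcdha frames and 52.7% in that of the Pcdhg frames. Of the 14 peaks away from frames, 7 were in the right flank, with a median fold enrichment of 16.4. These differences were not tested.

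Between Pcdha and Pcdhb, 2 CTCF peaks stood 47501 and 46561 bp before Pcdhb1, in an interval that the annotation leaves intergenic. The left one (37377023 to 37377297) was Lone CTCF with a value of 5.50 and a minus-strand motif of 17.5 bits. The right one (37377767 to 37378277) was CAC, with CTCF at 10.4, Rad21 at 8.96 and a minus-strand motif of 15.8 bits. To their left was the widest stretch between peaks of the window, 206.6 kb from 37170437 to 37377022, which holds 4 member transcript starts. Of these, Pcdha11-205 (37170512) lies at the left edge, and the CAC peaks that end there are within 1 kb of its start.

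Inside Pcdhgc5, 3 CTCF peaks lay outside the frame starts. A Lone CTCF peak of 5.09 in an intron (37931649 to 37931924) had a minus-strand motif of 18.8 bits. A Lone CTCF peak of 4.19 in a coding exon had no called motif. At the right end of the cluster, in the untranslated part of the last exon, a CAC peak (38000970 to 38001373, CTCF 8.00, Rad21 3.57) had a minus-strand motif of 24.4 bits, the highest score of any peak in the window. The starts of Taf7, a subunit of the general transcription machinery, and of 3222401L13Rik, both between Pcdhb and Pcdhg, had CAC peaks with CTCF values of 7.10 and 8.80 and no called motif.

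To the right of the members lies Diap1, an actin regulator, and the strongest CTCF peak of the window was in its intron at 38011686 to 38012249, with CTCF at 28.1, above 99.6% of the list, and Rad21 at 16.9. Its motif of 19.6 bits was on the minus strand. The right flank held 7 CTCF and 6 Rad21 peaks in 100 kb, with medians of 16.4 and 12.2, and all 6 Rad21 peaks were CAC. Counted from the last member transcript start, 6 of 8 CTCF peaks had a called motif (75%, all scored peaks 44.7%) and 6 of 6 were on the minus strand. The 44.7% is not matched for fold enrichment. In the 100 kb to the left of Pcdha11 there was no CTCF and no Rad21 peak. Nearest-member assignment gave Pcdhgc5 23 of the 40 CTCF peaks and 17 of the 28 Rad21 peaks, because its 1 gene start stands for the whole Pcdhg cluster and the right flank, and is also nearest to the peaks by Taf7 and 3222401L13Rik.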

How the data were processed

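ChIP-seq reads of female liver were mapped to mm9 with Bowtie2, only uniquely mapped reads were kept, the libraries of each antibody were pooled, and peaks were called with MACS2 at its defaults. Peaks that overlapped blacklisted regions, or held nothing but duplicated reads, had been removed. The 2 deposited lists hold the authors' score, fold enrichment (a ratio), −log10 q and summit position of every peak. The score was not analysed, the other values were used as given, and CTCF levels were not compared with Rad21 levels. Binding below the calling threshold is not listed, and pooling hides variation between mice.

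Peak coordinates lay within the mm9 chromosome lengths. Overlaps, the 20 bp motif, 50-mer uniqueness and reading frames were computed in python 3.11.15 with numpy 2.4.6, scipy 1.17.1, pysam 0.24.0 and samtools 1.23.1, and plots drawn with matplotlib 3.10.9. Overlap and motif steps were tested on simulated data. A peak counted as at a start when it overlapped the 1 kb to either side. No p-value is given, since each list is 1 pool. Alternatives were a −log10 q of at least 10, a fold of at least 5, other distances, overlaps, windows, starts and motif thresholds. Named members were the C-type genes (by symbol, Pcdhgc5 alone), the first and last of each cluster, those with a peak at the start and those nearest the strongest peaks; transcripts and reading frames were named after their values were seen. The members and lists were chosen with earlier results of these data known.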

Additional observations from a re-analysis of the deposited data

How the results depend on the processing

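Of 67 values recomputed under other settings, 59 kept within 1.5 times the count, or within the 95% interval of the share or median, and 8 did not. With only peaks of fold enrichment of at least 5 in both lists, members with a peak at the start fell from 11 to 4 for CTCF (16%, all genes 32.8%), from 8 to 4 for Rad21 (16%, all genes 27.2%) and from 6 to 3 for CAC (12%, all genes 22.4%). With a −log10 q of at least 10, members with a Rad21 peak numbered 5 (20%, all genes 39.2%) and those with a CTCF peak 8 (32%, all genes 42.9%). Thus 7 of the 11 members with a CTCF peak had only weak ones. An extension of 200 kb gave 43 Rad21 peaks in the window. The CTCF peaks with a called motif numbered 9 without the extension and 27 at the 5% threshold, where members with a motif numbered 24. By construction a wider window and a lower threshold give more. Counting transcript starts or reading frames, chosen after the data were seen, left the shares of starts with a CTCF peak at 42.6% and 44.8%, or 46.4% without 2 frames of repeated sequence. No paired analysis was possible because each list is 1 pool, and for the same reason no library could be left out. The lists do not give the depth of the pools, so a frame without a listed peak was not shown to be unbound.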

Other observations

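The non-clustered protocadherins, which have their own promoters elsewhere in the genome, gave a further comparison. Of 12 such genes, 4 had a CTCF peak within 1 kb of the start (33.3%, 13.8 to 60.9%), and each of the 4 was CAC. Over all protein-coding genes the shares were 50% for CTCF and 45.8% for CAC peaks, and both lie inside that interval. Pcdh15 had the highest CTCF value, 19.9, with its summit 1074 bp before the start. Pcdh1, which also lies on chromosome 18, had 16.7 with the summit 834 bp before the start. The Rad21 peak nearest to the Pcdh1 start (3.32, 197 bp after it) was CNC, and another Rad21 peak overlapped the CTCF peak. Pcdh17 (3.36) and Pcdh18 (3.20) had weak peaks 35 and 112 bp before the start.

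Fold enrichment and −log10 q ranked the Pcdhg sites differently. The CTCF site of highest fold enrichment, 18.8, had a −log10 q of 125.2, whereas the site of 16.1 at Pcdhgc5-202 had 285.4, and the neighbouring sites of 17.4 and 12.2 had 274.0 and 180.7. The sites with the larger −log10 q relative to their fold enrichment stood together between 37910979 and 37925812, and in the right flank, where the Diap1 peak of 28.1 had 872.2. The local background that divides the reads is not in the lists, and its part in this order was not tested.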
